A study of Mus musculus with 8 samples.

Results

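A set of 77 genes, each through 1 array probe, was well above background on all 4 arrays of AtT20 cells incubated with HX630 and on none of the 4 control arrays. AtT20 is a mouse line of pituitary corticotroph tumor cells, while HX630 is a synthetic compound that activates the retinoid X receptors (RXRs). The 4 HX630 samples received the agonist at 10 μM for 48 hr in medium with stripped serum, and the 4 control samples were kept without it. RNA of each sample was read on its own 1-color Agilent array. The members were chosen by their measured values in this same comparison: the probe had to carry a RefSeq mRNA accession, to be marked well above background by Feature Extraction on the 4 HX630 arrays only, and to have a mean log2 signal at least 1 higher with HX630. Their differences are therefore a description, and no test is given for them. The log2 signal is the processed signal of a spot relative to the 75th percentile of its array, so that 0 stands for that percentile and negative values lie below it.

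The array holds 26107 probes with such an accession, for 19797 genes. Of these probes, 5335 were well above background on no control array, 132 of the 5335 were well above it on all HX630 arrays, and 77 of the 132 differed by at least 1, which is 1.44% of the 5335. The opposite pattern was counted in the same way. Of 5253 probes well above background on no HX630 array, 73 were well above it on all control arrays and at least 1 lower with HX630, which is 1.39%. A gene symbol was found for 76 of the members, and 1 accession, NM_001045481, had none.

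RXRs are nuclear receptors that bind DNA mostly as partners of other nuclear receptors, among them PPARs, LXRs and the retinoic acid receptors. An RXR agonist can activate genes through those partners that respond to a ligand on the RXR side. Such dimers recognize repeats of a short half-site. Corticotrophs make ACTH from the precursor encoded by Pomc, and all 6 corticotroph markers examined, Pomc included, were well above background on all 8 arrays. Of the markers of other cell types examined, Gad1, which encodes an enzyme of GABA synthesis in neurons, was the one that is a member. Of the other neuron markers, Syt1 was 0.87 higher with HX630, Slc17a7 differed by −0.09 and the 3 Rbfox3 probes by −0.47, −0.59 and −0.65, all well above background on all 8 arrays, and Gad2, also of GABA synthesis, was well above background on no array. In bulk RNA, fewer expressing cells and less RNA per cell cannot be told apart.

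The control arrays shared 1 slide, and the HX630 arrays shared a different one, so treatment, slide and scan cannot be told apart. The local background was lower on the HX630 arrays, with medians of 21 to 22 scanner units against 24 to 25 in control (21.5 ± 0.58 against 24.8 ± 0.5, SD, n = 4 per group, two-sided exact permutation test p = 0.0286, the smallest these 70 regroupings can give, adjusted p = 0.114 over 4 quantities). The lowest signal still marked well above background was −7.03 ± 0.27 on the HX630 arrays and −6.64 ± 0.27 on the control arrays (SD, n = 4 per group, exact permutation p = 0.114, adjusted p = 0.152). The share of probes well above background was 72.2% ± 1.2 and 71.4% ± 1.4 (SD, n = 4 per group, exact permutation p = 0.429, adjusted p = 0.429). The 75th percentile itself was 10.85 ± 0.032 with HX630 and 10.59 ± 0.24 in control on the log2 scale (SD, n = 4 per group, exact permutation p = 0.114, adjusted p = 0.152). The part of these differences in the membership was not tested. When every array was held to the highest of the 8 limits, −6.34, the rule gave 54 probes.

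Most members were dim. The median intensity of their spots, before any correction, lay between 36 and 75 scanner units in control, with a median of 53, and between 50.5 and 343 with HX630, with a median of 74. Local backgrounds beside these spots were 17 to 36 units. The uncorrected intensities of the groups did not overlap for 60 members and overlapped for 17. The members were chosen on these same arrays, and the share over all probes was not counted. A median spot intensity of at least 100 on every HX630 array was found for 5 members, Slc38a5, Plppr1, Nrxn3, Lrtm2 and Tmem121b.

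**Figure D1:**
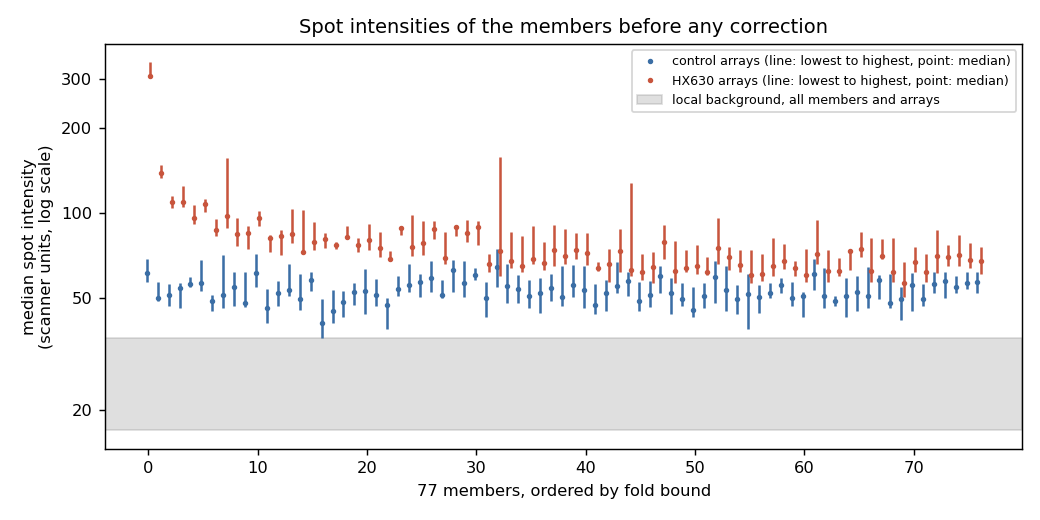
Median spot intensity of each of the 77 members in scanner units (vertical axis, log scale), ordered by the lower bound of the fold change. Vertical lines run from the lowest to the highest of the 4 control arrays (blue) and of the 4 HX630 arrays (red), points are medians, and the grey band spans the local backgrounds from 17 to 36. Most red lines lie between 50 and 100 units, and Slc38a5, the first member, reaches 343.

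The mean log2 difference of the 77 members ranged from 1.01 to 4.08, with a median of 1.53. After scaling, the groups did not overlap for 73 members. They overlapped for 1300017J02Rik, Themis, Nkx6-3 and Cntn4. The rule itself favors groups that do not overlap, and the share of such probes over the whole array was not counted. The 4 control values of a member varied more among themselves (median SD 0.477) than the 4 HX630 values (median SD 0.155). Being below the mark did not mean that no signal was measured in control: 58 members had a signal that differed from the background on all 4 control arrays, 18 had on 1 to 3 of them only a placeholder that the software writes in place of a signal, and Actc1 had placeholders on all 4. With the more lenient flag for a signal above background in place of the stricter one, 10 probes met the rule.

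Because the control probes were not well above background, fold changes of the processed signal are given as lower bounds. They do not carry over to other background corrections. For each control array the larger of 2 signals was taken, the probe's own or the lowest that was well above background there, and the mean of these was set against the mean HX630 signal. These bounds ranged from 1.02-fold to 15.1-fold, with a median of 1.65. The bound was at least 2 for 28 members, under 1.5 for 28, and at least 4 for Slc38a5 and Plppr1 only. The direction depended on the background correction. With normexp correction of the median spot intensities and a constant of 50 added to every spot, 29 of the 77 differences were above 0 and 48 were at or below it, and only those of Slc38a5 (1.68) and Plppr1 (0.79) reached 1.5-fold. Of the members described singly here, Xaf1, Ifih1, Slco5a1, Chrna9, Kcnj12, Sox21, Prdm13, Nkx6-3, Sp9, Olfr1066, F2rl3, Igf2bp3, Cntn4, Myh6, Kctd14, Fdft1 and Atat1 were below 0 with that correction.

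**Figure D2:**
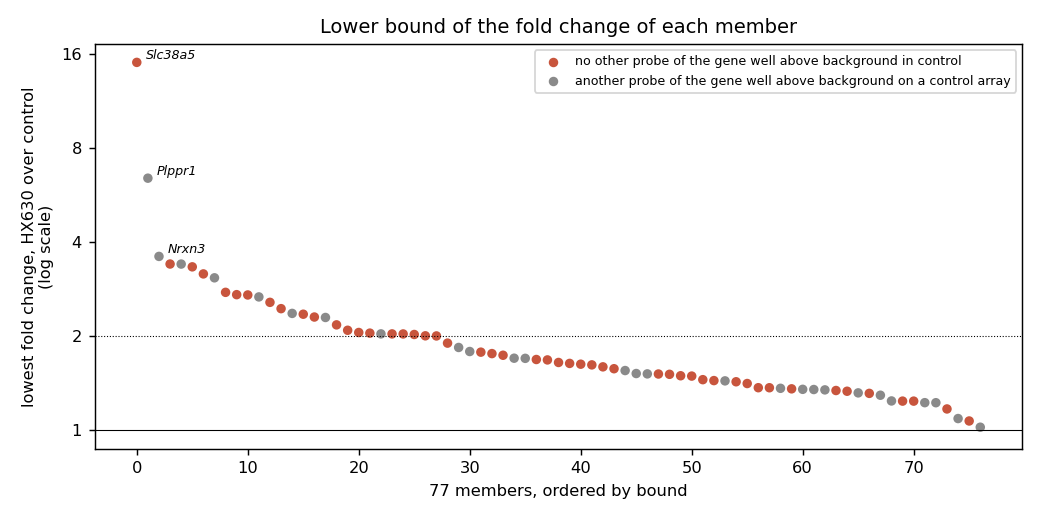
Lower bound of the fold change of each of the 77 members, HX630 over control (vertical axis, log scale), in descending order. Grey points are genes with another probe well above background on a control array, red points all others; the solid line is 1 and the dotted line 2. Slc38a5 (15.1) and Plppr1 (6.42) lie above 4, and 28 members lie at 2 or above.

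Slc38a5, which encodes an amino acid transporter of the plasma membrane for glutamine and other neutral amino acids, had the highest bound. Its log2 signal was −6.40, −6.71, −7.08 and −7.02 on control arrays 1 to 4 and −2.86, −2.54, −2.69 and −2.80 on HX630 arrays 1 to 4. All 4 HX630 values were far above all control values, and in uncorrected spot intensity the samples lay at 57 to 69 against 302.5 to 343. The means were −6.80 ± 0.31 and −2.72 ± 0.14 (SD, n = 4), a difference of 4.08 and at least 15.1-fold.

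Plppr1 encodes a membrane protein of the phospholipid phosphatase-related family found in brain. It was measured at −8.02, −7.79, −7.57 and −7.22 in control and at −3.99, −3.93, −4.004 and −3.90 with HX630, a difference of 3.70 and at least 6.42-fold. The HX630 arrays had an SD of 0.05, and the groups were well apart. A second probe of Plppr1, well above background on 1 control array and on all HX630 arrays, was 1.56 higher with HX630.

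Nrxn3 encodes neurexin 3, an adhesion molecule of the presynaptic membrane, and Lrtm2 a membrane protein with leucine-rich repeats. The log2 signal of Nrxn3 was −8.51, −8.73, −8.35 and −8.89 in control, with placeholders on 2 of these arrays, and −4.99, −4.79, −4.60 and −4.77 with HX630, at least 3.6-fold. Lrtm2 was at −8.27, −7.05, −7.58 and −8.44 in control and −4.82, −4.91, −4.81 and −4.93 with HX630, at least 3.41-fold. In both, the lowest HX630 array was more than 2 log2 units above the highest control array.

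The next members by bound encode proteins of different kinds. Pabpc4l, a gene of the cytoplasmic poly(A)-binding protein family, was measured at −7.39, −6.58, −7.44 and −7.07 in control and at −4.74, −4.85, −4.91 and −4.97 with HX630 (at least 3.41-fold). Tmem121b, which encodes a transmembrane protein, was at −6.53, −7.61, −7.33 and −7.44 against −5.01, −4.87, −4.80 and −4.91 (at least 3.34-fold). In each of these, 1 control array was nearer to the HX630 arrays than the others were, replicate 2 for Pabpc4l and replicate 1 for Tmem121b. A second Pabpc4l probe, well above background on 1 control and 3 HX630 arrays, was 0.71 higher with HX630. Pla2g4e, a member of the cytosolic phospholipase A2 group, had control signals of −8.27, −8.53, −7.87 and −7.68 and HX630 signals of −5.04, −5.09, −5.04 and −4.72 (at least 3.17-fold). Tmem44, another transmembrane protein gene, had −6.80, −8.64, −9.06 and −9.03 in control and −4.24, −5.25, −5.36 and −5.21 with HX630 (at least 3.08-fold). Replicate 1 was the highest array of both groups for Tmem44.

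Vmn1r82 encodes a vomeronasal pheromone receptor and Olfr786 an olfactory receptor. Vmn1r82 was at −6.07, −7.14, −6.75 and −7.06 in control and −5.001, −5.12, −5.18 and −5.07 with HX630, at least 2.77-fold. Olfr786 was at −5.87, −7.17, −7.65 and −6.96 and at −5.09, −4.94, −5.22 and −5.04, at least 2.72-fold. Control replicate 1 was the highest control array for both, and it was the highest for 48 of the 77 members. Col26a1, a collagen gene, had −6.39, −6.97, −6.97 and −7.11 in control and −5.27, −5.25, −5.26 and −5.01 with HX630 (at least 2.71-fold). Nkain3, whose protein interacts with the sodium pump, had −8.29, −8.56, −7.64 and −8.04 and −5.23, −5.17, −5.37 and −5.11 (at least 2.67-fold). For these last genes, too, every HX630 array exceeded every control array.

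**Figure D3:**
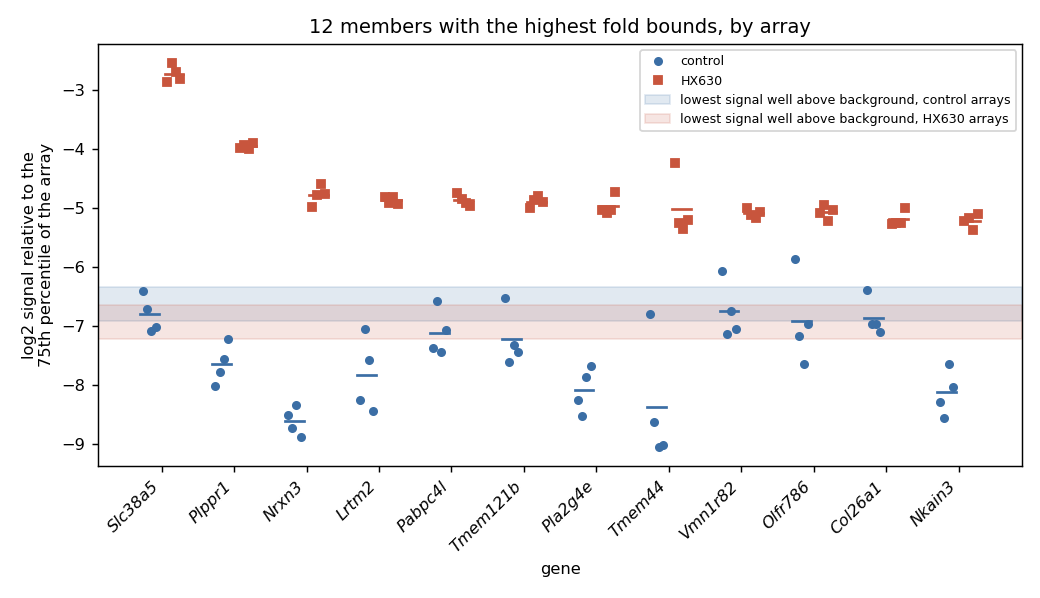
Log2 signal relative to the 75th percentile of the array (vertical axis) for the 12 members with the highest fold bounds (horizontal axis), with 1 point per array, control in blue circles and HX630 in red squares, and bars at group means. The shaded bands span the lowest signals well above background over the 4 arrays of each group, and in all 12 genes the red points lie above the blue ones.

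By symbol, 3 of the 76 genes (3.95%) encode ion channels, Scn3a, Chrna9 and Kcnj12, against 1.37% of all genes with such probes and 2.45% of the genes with a probe below the mark on every control array. Scn3a, which encodes a voltage-gated sodium channel of neurons, was at −6.79, −7.81, −8.19 and −7.94 in control and −4.86, −5.63, −5.54 and −5.53 with HX630 (at least 2.37-fold). The neuron marker Gad1 was at −8.55, −8.08, −7.91 and −7.74 against −5.66, −5.64, −5.50 and −5.64 (at least 2.04-fold). Among the other channels, Chrna9, a nicotinic acetylcholine receptor subunit, was at −7.30, −7.06, −7.91 and −6.97 against −5.35, −5.98, −5.68 and −5.51 (at least 2.01-fold), and Kcnj12, an inwardly rectifying potassium channel, at −7.07, −7.90, −7.38 and −7.47 against −6.04, −6.33, −5.91 and −5.94 (at least 1.496-fold). Adhesion genes took in 3 members (3.95%), against 1.83% of all genes. They made up 3.07% of the genes with a probe below the mark on every control array. Among the 3, Cntn4, a contactin of neuronal adhesion, was at −6.59, −8.40, −8.92 and −7.39 against −5.77, −6.51, −6.41 and −6.60. Its control replicate 1 lay just above HX630 replicate 4, so the groups overlapped. Other Cntn4 probes, well above background on all 8 arrays, differed by 0.08 and −0.10.

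Some genes of interferon-responsive and cell death pathways were members. Interferon-stimulated genes are switched on by interferon signaling in antiviral defense, and TRAIL, encoded by Tnfsf10, is a ligand that can trigger apoptosis through death receptors. Oasl2, an oligoadenylate synthetase-like gene, was measured at −8.36, −7.59, −7.33 and −7.53 in control and −5.35, −5.20, −5.45 and −5.11 with HX630 (at least 2.57-fold). Tnfsf10 was at −8.43, −8.47, −7.49 and −7.17 against −5.65, −5.68, −5.60 and −5.36 (at least 2.09-fold). Both had groups that were clearly apart, with the HX630 arrays close to each other. Xaf1, which encodes an interferon-inducible protein that binds the apoptosis inhibitor XIAP, was at −7.22, −8.63, −7.70 and −7.83 against −5.83, −5.72, −6.22 and −6.36 (at least 1.52-fold). Ifih1, which encodes the RNA sensor MDA5, was at −6.82, −7.45, −7.37 and −8.16 against −5.76, −6.12, −6.16 and −6.39 (at least 1.44-fold). A second probe of Ifih1 was well above background on no array, and a second probe of Xaf1, well above it on 1 control and 3 HX630 arrays, differed by −0.16.

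The other genes of these pathways were tested over the whole array with limma and Benjamini-Hochberg adjustment, with calls made where the fold change exceeded 1.5 and the adjusted p stayed under 0.01. Of all 15315 genes tested, 8.38% were called higher and 11.2% lower with HX630, and the median log2 difference was −0.03. By probes, 2131 were called higher and 3184 lower, and with scaling to spike-in probes 4264 and 1836. The lists hold genes that are no members, since a member passed the filter on dim probes only through the HX630 arrays. Of 24 interferon-stimulated genes tested, 7 were called higher, 5 lower and 12 neither, with a median difference of 0.18. Among them, Psmb9, a subunit of the immunoproteasome, rose by 1.26 (SE 0.05, adjusted p = 6.16e-07), Oasl1, a relative of Oasl2, rose by 1.17 (SE 0.10, adjusted p = 3.4e-05), and B2m, the light chain of MHC class I, fell by 1.32 (SE 0.05, adjusted p = 7.37e-07). Of 14 death ligands, receptors and their mediators, 2 were called higher, 1 lower and 11 neither, with a median of 0.20. Ltb, encoding lymphotoxin beta, rose by 1.82 (SE 0.09, adjusted p = 1.6e-06), Casp8, the initiator caspase of death receptors, rose by 0.63 (SE 0.04, adjusted p = 4.81e-06), and Tnfrsf12a, the receptor of TWEAK, fell by 0.76 (SE 0.05, adjusted p = 7e-06). Oasl1 (0.52) and Ltb (0.58) were not called with the normexp correction and a constant of 50. With a constant of 16 they were still called (0.69 and 0.85). Tnfrsf12a was not called with spike-in scaling.

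Acadl, which encodes a mitochondrial enzyme of fatty acid oxidation and is a target of PPARs, was the only member in the lists of targets of RXR partner receptors. It was at −6.74, −7.06, −6.85 and −7.24 in control and −5.96, −5.61, −5.59 and −5.67 with HX630, at least 1.90-fold. Of 37 other PPAR targets tested, 6 were called higher, 8 lower and 23 neither, with a median difference of −0.20. Fabp2, a fatty acid-binding protein, rose by 1.80 (SE 0.06, adjusted p = 2.85e-07), Cpt1a, which controls entry of fatty acids into mitochondria, rose by 1.60 (SE 0.04, adjusted p = 1.72e-07), and the transcription factor gene Creb3l3 fell by 1.58 (SE 0.09, adjusted p = 2.6e-06). No LXR target was a member (15 tested, 4 higher and 3 lower), nor was any gene of the retinoic acid receptors and retinoid metabolism (19 tested, 0 higher and 4 lower) or of the other partners VDR, FXR, thyroid hormone receptor, PXR and CAR (14 tested, 1 higher and 2 lower). The labels do not say whether the samples of a group were separate cultures, so these p-values measure the spread between samples, which may be technical.

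By symbol, the largest family among the members was that of G protein-coupled receptors, with 11 of 76 genes (14.5%). They made up 8.23% of all genes with such probes, but 20.1% of the 4663 genes with a probe below the mark on every control array. The 8 olfactory and 2 vomeronasal receptors among the 11, a group formed after the data were seen, were 13.2% of the members, 6.67% of all genes and 17.2% of those 4663. Olfr385 was at −6.33, −7.10, −7.96 and −6.69 in control and −5.12, −5.21, −5.43 and −5.35 with HX630 (at least 2.45-fold), and Olfr1066 at −6.15, −7.79, −7.39 and −7.20 against −5.79, −5.97, −5.74 and −6.04 (at least 1.63-fold). F2rl3, the protease-activated thrombin receptor PAR4, was at −7.10, −6.92, −7.00 and −7.35 against −4.62, −6.68, −6.53 and −6.17. HX630 replicate 1 alone lay well above the rest in F2rl3, and the other HX630 arrays lay near the controls without overlapping them. The difference of F2rl3 was 1.09, and 0.63 without HX630 replicate 1. Its other probe, well above background on all 8 arrays, differed by −0.27.

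The symbol patterns for developmental transcription factors took in 3 of the 76 genes (3.95%), Sox21, Prdm13 and Nkx6-3, against 1.43% of all genes and 1.69% of those with a probe below the mark on every control array. Sox21, a neural progenitor factor, was at −6.33, −7.15, −7.09 and −7.05 in control and −5.48, −6.01, −6.03 and −5.94 with HX630 (difference 1.04). Prdm13, a factor of spinal cord and retinal neurons, was at −6.55, −8.07, −6.90 and −6.81 against −5.53, −5.90, −6.07 and −5.91 (1.23). Replicate 1 was the highest array of both groups for each gene. Nkx6-3, a homeobox factor of the stomach, was at −6.19, −7.71, −7.61 and −8.04 against −5.84, −6.29, −6.49 and −6.21 (1.18), and its control replicate 1 lay above 3 HX630 arrays. Another Nkx6-3 probe was well above background on no array and differed by −1.14. Zinc finger genes took in 1 member (1.32%), against 2.3% of all genes. They made up 1.09% of the genes with a probe below the mark on every control array. That member, Sp9, a factor of forebrain interneurons, was at −6.31, −7.66, −7.44 and −7.65 against −5.83, −5.91, −6.03 and −5.96 (1.33). The bounds of these genes lay at 1.31-fold to 1.70-fold.

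Muscle and transport genes were represented by a few members. Actc1, the actin of heart muscle, had placeholders of −8.29, −8.55, −8.86 and −8.99 in control and signals of −5.75, −5.26, −5.28 and −5.43 with HX630 (at least 2.31-fold). Myh6, a heart myosin, was at −8.13, −6.90, −6.46 and −7.34 against −5.78, −5.93, −5.94 and −6.16 (at least 1.52-fold). Another Myh6 probe, well above background on all 8 arrays, differed by −0.38. Of 4 skeletal muscle markers, 3 were well above background on all arrays of both groups. Slco5a1, an organic anion transporter family gene, was at −7.49, −7.76, −7.06 and −6.80 against −5.85, −6.21, −6.37 and −6.18 (at least 1.37-fold). Igf2bp3, an RNA-binding protein gene, was at −8.19, −7.52, −6.92 and −6.66 against −5.87, −6.09, −6.61 and −6.46 (at least 1.24-fold). In Igf2bp3 the lowest HX630 array was hardly above the highest control array. No cytochrome P450 gene and no protease or protease inhibitor, as the symbol patterns counted them, was a member. These families hold 0.487% and 1.54% of all genes. Of the genes with a probe below the mark on every control array, they hold 0.836% and 2.40%.

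The pattern was that of a probe and, for some genes, not of every probe. Of the 76 genes, 34 had another probe, and 27 of these had one that was well above background on at least 1 control array, 20 of them on all 4. The remaining 49 genes had no probe above the mark in control, and 42 of the 49 had no second probe. The other 7 had 8 further probes between them, which were well above background on no HX630 array either. Of all 46 other probes of member genes, 1 had the detection pattern of the members. Probes of 1 gene can read different transcripts or ends, and their levels cannot be set against each other, so only the differences are compared.

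Nrxn3, Tmem44, Nkain3 and Scn3a had other probes, well above background on all 8 arrays, that were also much higher with HX630. The brightest other Nrxn3 probe went from −3.66, −3.81, −3.84 and −3.70 in control to −0.95, −0.93, −0.91 and −0.88 with HX630 (2.83 higher), and the next one was 2.42 higher. Other Tmem44 probes were 2.67 and 2.03 higher, the Nkain3 probe 2.33 higher, and the Scn3a probes 1.82 and 1.89 higher. These other probes were thus above background in control as well, and were higher with HX630 as the member probes were.

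For Kctd14, Sox21, Fdft1 and Atat1 the other probes differed by less than the member probe or with the opposite sign. Kctd14 had a member probe at −7.30, −8.23, −6.92 and −7.80 in control and −5.63, −6.78, −6.34 and −6.05 with HX630, while its bright probe went from 7.91, 7.91, 7.57 and 7.72 to 7.45, 7.41, 7.50 and 7.44, a difference of −0.32, and a further probe was 0.25 higher. The member probe of Sox21 was 1.04 higher, and its other probe went from −2.65, −2.97, −3.02 and −3.10 to −3.55, −3.78, −3.76 and −3.83 (−0.80). Fdft1, which encodes squalene synthase of the cholesterol pathway, had a member probe at −7.09, −8.16, −7.81 and −6.90 against −6.19, −6.24, −6.31 and −6.29, and a bright probe that was 0.87 higher. Atat1, the tubulin acetyltransferase, had a member probe at −6.64, −7.49, −7.86 and −7.57 against −6.21, −6.20, −6.26 and −6.15, and other probes 0.82 and 0.85 higher. Over the 27 other probes well above background on all 8 arrays, 19 were higher with HX630, 14 of them by at least 1.5-fold, and 8 were lower. The matching shares over all probes of the array were not counted. Among the 19, the Rgs9bp probe (0.41) was higher through HX630 replicate 3 alone (−1.39), with the other HX630 arrays at −4.47, −4.58 and −4.67.

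**Figure D4:**
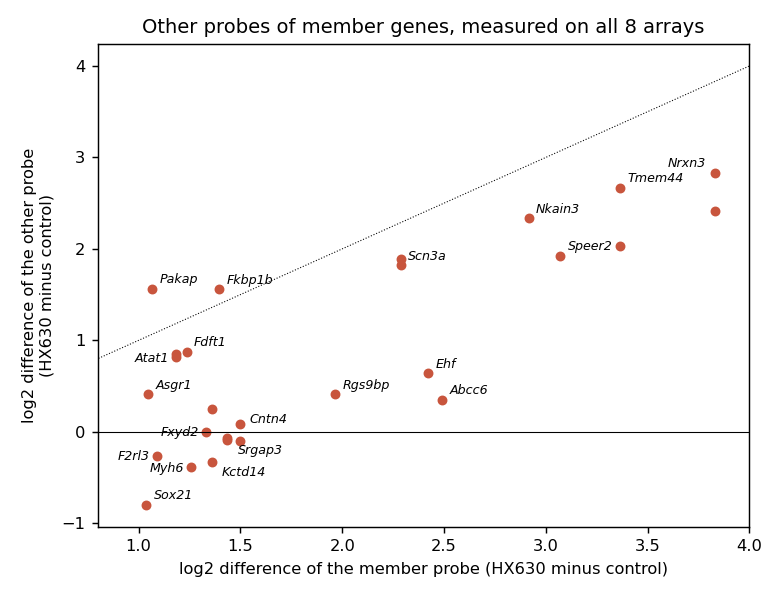
Log2 difference (HX630 minus control) of 27 other probes that were well above background on all 8 arrays (vertical axis) against that of the member probe of the same gene (horizontal axis), with 1 point per other probe. The solid line is 0 and the dotted line equality. The probes of Nrxn3, Tmem44, Nkain3 and Scn3a lie above 1.5 on both axes, and 8 points lie below 0, with Sox21 the lowest at −0.80.

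The members just inside the difference of 1 were 1300017J02Rik (1.01), Olfr1215 (1.03) and Sox21 (1.04), and the probes just outside were those of Ntn5 (0.997), Tafa2 (0.984) and Olfr493 (0.924). Detection on a single array kept out probes with much larger differences: Il17rd (3.39), Epb42 (3.33), Tfcp2l1 (2.50) and another Nrxn3 probe (2.49) were well above background on 1 control array, and Efhb (2.12) was below it on 1 HX630 array.

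Chromosome 19, with 3.44% of all genes, held no member, and 13 of the 76 genes (17.1%) were on chromosome 2, which holds 8.59% of all genes with such probes. Among the 13 were the olfactory receptor genes Olfr1000, Olfr1062, Olfr1066 and Olfr1215. Chromosome shares of the genes with a probe below the mark on every control array were not counted. Nkain3 and Prdm13 on chromosome 4 had no protein-coding gene between them, and the olfactory receptor genes Olfr1062 and Olfr1066 on chromosome 2 had 1. RefSeq promoters of GRCm38.p6, from 250 bases before to 50 after each annotated start, were found for 59 of the 76 genes, with 73 starts. The nuclear receptor half-site AGGTCA was searched on both strands. It was present in 11 of the 73 promoters (15.1%) and in 16.3% of all 32851 promoters of that length. Direct repeats of it with 1, 2, 4 or 5 bases between were in 0 of the 73, and in at most 0.0396% of all promoters. The letters TATAAA were in 12.3% and 13.6%. Promoters of the 2 genes with the highest bounds are shown, Slc38a5 (chrX:8271131-8271430, plus strand, 56% GC) and Plppr1 (chr4:49059212-49059511, plus strand, 65.7% GC), which held no half-site. Those of Tnfsf10 (chr3:27316827-27317126, plus strand) and Xaf1 (chr11:72301379-72301678, plus strand) were added after the search, because each held 1, in capitals, just after the start in Tnfsf10 on the opposite strand and 192 bases before it in Xaf1.
Slc38a5: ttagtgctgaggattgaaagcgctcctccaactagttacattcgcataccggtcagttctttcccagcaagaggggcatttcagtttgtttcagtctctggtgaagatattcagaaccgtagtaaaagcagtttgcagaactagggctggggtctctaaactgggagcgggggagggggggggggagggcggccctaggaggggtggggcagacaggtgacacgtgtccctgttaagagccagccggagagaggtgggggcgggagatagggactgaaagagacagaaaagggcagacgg
Plppr1: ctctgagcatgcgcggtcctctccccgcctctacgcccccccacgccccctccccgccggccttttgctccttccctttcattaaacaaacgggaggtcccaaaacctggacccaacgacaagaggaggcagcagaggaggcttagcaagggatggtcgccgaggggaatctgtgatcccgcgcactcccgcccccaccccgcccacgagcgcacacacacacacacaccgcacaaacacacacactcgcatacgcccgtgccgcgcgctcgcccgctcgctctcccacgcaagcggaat
Tnfsf10: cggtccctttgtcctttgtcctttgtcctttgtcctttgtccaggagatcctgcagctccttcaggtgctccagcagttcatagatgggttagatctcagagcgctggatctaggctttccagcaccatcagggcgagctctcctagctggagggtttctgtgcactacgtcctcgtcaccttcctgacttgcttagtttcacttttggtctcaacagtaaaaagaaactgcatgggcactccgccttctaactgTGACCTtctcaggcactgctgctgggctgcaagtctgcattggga
Xaf1: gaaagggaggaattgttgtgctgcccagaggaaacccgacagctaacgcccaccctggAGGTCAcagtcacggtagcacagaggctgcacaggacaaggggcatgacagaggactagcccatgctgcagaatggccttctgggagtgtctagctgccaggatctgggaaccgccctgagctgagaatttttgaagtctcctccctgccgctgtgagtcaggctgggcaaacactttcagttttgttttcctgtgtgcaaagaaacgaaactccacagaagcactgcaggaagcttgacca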

How the data were processed

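Total RNA of 4 control and 4 HX630 samples was read in the Cy3 channel. Per the labels the authors used Feature Extraction 10.7.3.1. The deposited processed signal is an intensity after background subtraction and detrending. The deposited files also give flags and, for every spot, the median intensities of the spot and the surrounding background. The authors also deposited log2 values, which matched log2 processed signals reduced by their array's 75th percentile. That calculation was used here. Control and outlier spots were left out and spots of a probe averaged, which gave 39429 probes, of which 28548, marked well above background on 4 or more of the 8 arrays, were tested with limma 3.58.1 (R 4.3.3), adjusted over these probes. The brightest tested probe stood for a gene. On simulated data the code was tested before use. Of 26107 probes with an mRNA accession, 25520 were matched to a RefSeq symbol.

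The members and lists were chosen with earlier results of these data known. Named with all values were the 12 highest bounds, the 6 brightest members, members in a gene list or symbol family (up to 5 per list), and 6 genes with a bright second probe. Of genes of a list that are no members, at most 3 called were named, by size. The gene lists were PPAR, LXR and retinoic acid receptor targets, targets of other RXR partners, interferon-stimulated genes and death ligands and receptors. Promoters were to be shown in the order of the bound. Alternatives were other scalings, normexp correction, other detection rules, another fold, a replicate block and each array left out. Depth does not apply to arrays, and their number limits the precision. Probe and protein sequences were not used here.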

Additional observations from a re-analysis of the deposited data

Results flagged for a closer look

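Among 160 sets of 4 arrays (each member, and 3 measures of the arrays, in each group), 10 had 1 array that stood apart from the others by more than the 95% limit of Dixon's ratio (the gap to the nearest array over the whole range), where chance gives about 1 in 20, or 8. With HX630 the ratio was 0.858 for Pla2g4e and 0.944 for Col26a1 (replicate 4 high), 0.871 for Tmem44 and 0.865 for Scn3a (replicate 1 high), 0.875 for Fam166a (replicate 1 low) and 0.849 for Gad1 (replicate 3 high). In control it was 0.834 for Sp9 (replicate 1 high) and 0.918 for Asgr1 (replicate 2 high). Sox21 had a ratio of 0.884 in control and of 0.844 with HX630, with replicate 1 high in both. Without HX630 replicate 1 the difference of Sox21 was 0.91, under the 1 of the rule, and without control replicate 1 it was 1.23. The other genes stayed above 1 without the array that stood apart.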

How the results depend on the processing

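The count of 77 members depended on the processing. It was 83 with median scaling, 88 with quantile normalization, 94 with scaling to spike-in probes, 74 to 110 with 1 array left out (110 without control replicate 1), 10 with the lenient detection flag, 120, 21 and 132 with a difference of at least 0.5, of at least 2 or with the detection pattern alone, and 49 for genes with no probe well above background in control. Added after the data were seen, a measured control signal on at least 1 array left 76, groups that did not overlap left 73, and 1 detection limit for all arrays gave 54. Normexp correction of the median spot intensities, which adds a constant of 50 to every spot, left 1 member, with 29 of the 77 differences above 0 and 48 at or below it (median −0.07, from −0.22 to 1.68); with a constant of 16 it left 2. With 50, the log2 differences that turned below 0 were Xaf1 −0.064, Ifih1 −0.11, Slco5a1 −0.16, Chrna9 −0.029, Kcnj12 −0.14, Sox21 −0.17, Prdm13 −0.13, Nkx6-3 −0.19, Sp9 −0.11, Olfr1066 −0.095, F2rl3 −0.12, Igf2bp3 −0.22, Cntn4 −0.17, Myh6 −0.14, Kctd14 −0.12, Fdft1 −0.072 and Atat1 −0.17. With 16 they were Ifih1 −0.043, Slco5a1 −0.078, Kcnj12 −0.063, Sox21 −0.12, Prdm13 −0.045, Nkx6-3 −0.16, F2rl3 −0.076, Igf2bp3 −0.17, Cntn4 −0.10, Myh6 −0.060, Kctd14 −0.050 and Atat1 −0.10. The cause was not tested.

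Of all probes tested, 2131 were called higher and 3184 lower. With spike-in scaling, which raised the median of all probes by 0.23, there were 4264 and 1836. Normexp with 50 and with 16 gave 1240 and 1355 higher. With 1 array left out, 1847 to 2566 were called higher and 2783 to 3369 lower. A replicate block gave 2209 higher and 3345 lower. Deviations of same-numbered arrays correlated at 0.52, −0.0092, 0.24 and 0.38. Arrays of different numbers were not compared in this way, so the pairing of the samples by number is not settled. Of the listed genes named with a test, Ltb (0.58) and Oasl1 (0.52) were not called with normexp at 50, nor Tnfrsf12a (−0.53) with spike-in scaling. Without 1 array, the differences of 7 of the members described singly could fall under 1, the lowest being F2rl3 at 0.63 without HX630 replicate 1. Signals close to background limit what can be said of most members.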
